A study of Mus musculus with 72 samples.

Results

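Phyhd1, Cyp4f13, Cyp4f14 and Cyp4f15 were followed across 72 RNA-seq libraries of the mouse suprachiasmatic nucleus (SCN), the hypothalamic nucleus that holds the master circadian clock. The 4 genes were matched by symbol, 4 of 24883 rows of the deposited tables, and were chosen because they had been seen to be higher on a tryptophan-depleted diet. Male C57BL/6 mice, 8 weeks old, spent 1 week singly housed with a daily alternation of 12 h of light and 12 h of darkness (LD) or in constant darkness (DD), and then ate a tryptophan-depleted diet (-Trp) or a nitrogen-matched control diet (Ctrl) for 2 weeks under the same lighting. Each of the 4 combinations of diet and lighting had 3 libraries at each of 6 time points (0, 4, 8, 12, 16 and 20 h), so 18 libraries a group. All values are FPKM, fragments scaled to transcript length and to the mapped total, which allow levels to be compared between genes per length.

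The name of a deposited column and the library it holds disagree. By the rule used here, Ctrl LD from 0 to 20 h lies in the columns named Ctrl DD at 16 and 20 h and then -Trp DD at 0 to 12 h, and -Trp LD in those named -Trp DD at 16 and 20 h and then Ctrl LD at 0 to 12 h. Ctrl DD lies in those named Ctrl LD at 16 and 20 h and then -Trp LD at 0 to 12 h, and -Trp DD in those named -Trp LD at 16 and 20 h and then Ctrl DD at 0 to 12 h. In this order the control libraries match the study's published values. Only the control libraries could be matched in this way, and the -Trp libraries were placed by carrying the same order on. Results are given in this order. The sums of FPKM also fell into 2 ranges, one from 403066 up and the other up to 353587, with all 36 LD libraries in the higher range and 35 of the 36 DD libraries in the lower one. Replicate 2 of -Trp DD at 4 h was the DD library in the higher range. The effect of light on a level therefore cannot be told apart from the difference between these ranges.

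Cyp4f genes encode heme monooxygenases of the cytochrome P450 family that add a hydroxyl group at or near the methyl end of fatty acids and of eicosanoids such as leukotriene B4, a step in their breakdown. They take electrons from cytochrome P450 reductase. PHYHD1 is an iron- and 2-oxoglutarate-dependent dioxygenase related to PHYH, the peroxisomal enzyme that starts the breakdown of phytanic acid, and its own substrate is not established.

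The reference sequences before the start sites are shown because these genes differed in how their RNA moved with diet, and because 3 of them are relatives on 1 chromosome. In GRCm38 (the assembly also called mm10) with GENCODE M21 annotation, Phyhd1 spans chr2:30266203-30282149 on the plus strand. Cyp4f15 spans chr17:32685627-32703352 on the plus strand, Cyp4f14 chr17:32905070-32917342 and Cyp4f13 chr17:32924688-32947402 on the minus strand. Cyp4f14 and Cyp4f13 lie 7.346 kb apart, and Cyp4f15 lies 201.7 kb from Cyp4f14. All 4 matched a RefSeq start site, and the 250 bases before it (RefSeq, GRCm38.p6) follow in the direction of the gene, with a CCAAT box on the opposite strand, read as ATTGG, in capitals.
Phyhd1 (chr2:30265953-30266202, plus strand): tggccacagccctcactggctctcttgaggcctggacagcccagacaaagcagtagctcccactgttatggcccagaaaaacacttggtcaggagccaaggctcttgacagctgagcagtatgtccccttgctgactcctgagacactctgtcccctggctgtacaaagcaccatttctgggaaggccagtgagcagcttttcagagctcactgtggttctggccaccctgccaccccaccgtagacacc
Cyp4f15 (chr17:32685409-32685658, plus strand): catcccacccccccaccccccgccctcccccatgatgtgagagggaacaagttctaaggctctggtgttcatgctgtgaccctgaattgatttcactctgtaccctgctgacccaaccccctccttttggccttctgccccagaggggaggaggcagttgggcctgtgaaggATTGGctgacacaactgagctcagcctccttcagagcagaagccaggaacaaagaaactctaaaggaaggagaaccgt
Cyp4f14 (chr17:32917343-32917592, minus strand): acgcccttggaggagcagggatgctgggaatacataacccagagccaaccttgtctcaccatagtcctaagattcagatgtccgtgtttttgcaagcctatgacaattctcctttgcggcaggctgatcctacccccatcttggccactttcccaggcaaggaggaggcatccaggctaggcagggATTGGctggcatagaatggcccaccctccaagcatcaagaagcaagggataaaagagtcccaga
Cyp4f13 (chr17:32947362-32947611, minus strand): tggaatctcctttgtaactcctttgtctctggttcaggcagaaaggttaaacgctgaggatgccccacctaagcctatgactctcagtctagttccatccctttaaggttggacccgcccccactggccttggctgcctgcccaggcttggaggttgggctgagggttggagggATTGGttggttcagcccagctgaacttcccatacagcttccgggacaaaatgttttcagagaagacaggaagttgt

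The CCAAT box began 78 bases before the Cyp4f15 start, 64 bases before this Cyp4f14 start and 76 bases before the Cyp4f13 start. None of the 3 windows of Phyhd1, 1 for each of its RefSeq starts, held CCAAT on either strand. CCAAT was in 33.8% of 32851 promoter windows of the same length, counting both strands, so its presence in the 3 Cyp4f windows is a description. The E-box (CACGTG, in 6.02% of windows), the D-box (TTATGTAA, 0.819%), the PPAR response element (a direct repeat with 1 spacer base, 0.0335%), the TATA box (TATAAA, 12.4%) and the amino acid response element (TGATGNAAN, 3.44%) were in no window of the 4 genes. The core of the dioxin response element (GCGTG, 28.2%) was in 1 window, that of another Cyp4f14 start, 237 bases before it.

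Phyhd1 was the most abundant of the 4 genes and the one that differed most between diets. In LD its level was 14.4 ± 2.17 FPKM (SD, n = 18) on Ctrl and 21.6 ± 4.53 FPKM on -Trp, 1.51 times as high. In DD it was 13.4 ± 1.84 FPKM on Ctrl and 23.2 ± 3.28 FPKM on -Trp, 1.73 times as high. These differences chose the gene and are described with no test.
In LD the Ctrl libraries had Phyhd1 levels from 11.3 to 19.3 FPKM with a median of 13.9, and the -Trp libraries from 12.5 to 31.4 FPKM with a median of 21.5. The groups overlapped, with 12 of 18 -Trp libraries above the highest Ctrl library and 17 of 18 above the Ctrl median. In DD the Ctrl libraries ran from 9.42 to 16.5 FPKM with a median of 13.4, and the -Trp libraries from 19.3 to 33.0 FPKM with a median of 22.5. Here the groups did not overlap, and every -Trp library lay above every Ctrl library.
By time, the mean Phyhd1 level on -Trp was the higher at 6 of 6 time points in LD and at 6 of 6 in DD. All 3 -Trp libraries lay above all 3 Ctrl libraries at 4 of 6 time points in LD and at 6 of 6 in DD. The share of all genes with such counts, or with diets that do not overlap, was not taken, so these are a description. Over all genes tested, 0.613% were called higher on -Trp in LD and 7.66% in DD (limma, adjusted p under 0.05), values that stand beside a gene picked from that comparison and are not read against it. The 2 LD time points with overlap were 0 h, where a Ctrl library reached 19.3 FPKM and a -Trp library was at 19.1, and 20 h, where a -Trp library was at 12.5 FPKM.

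**Figure D1:**
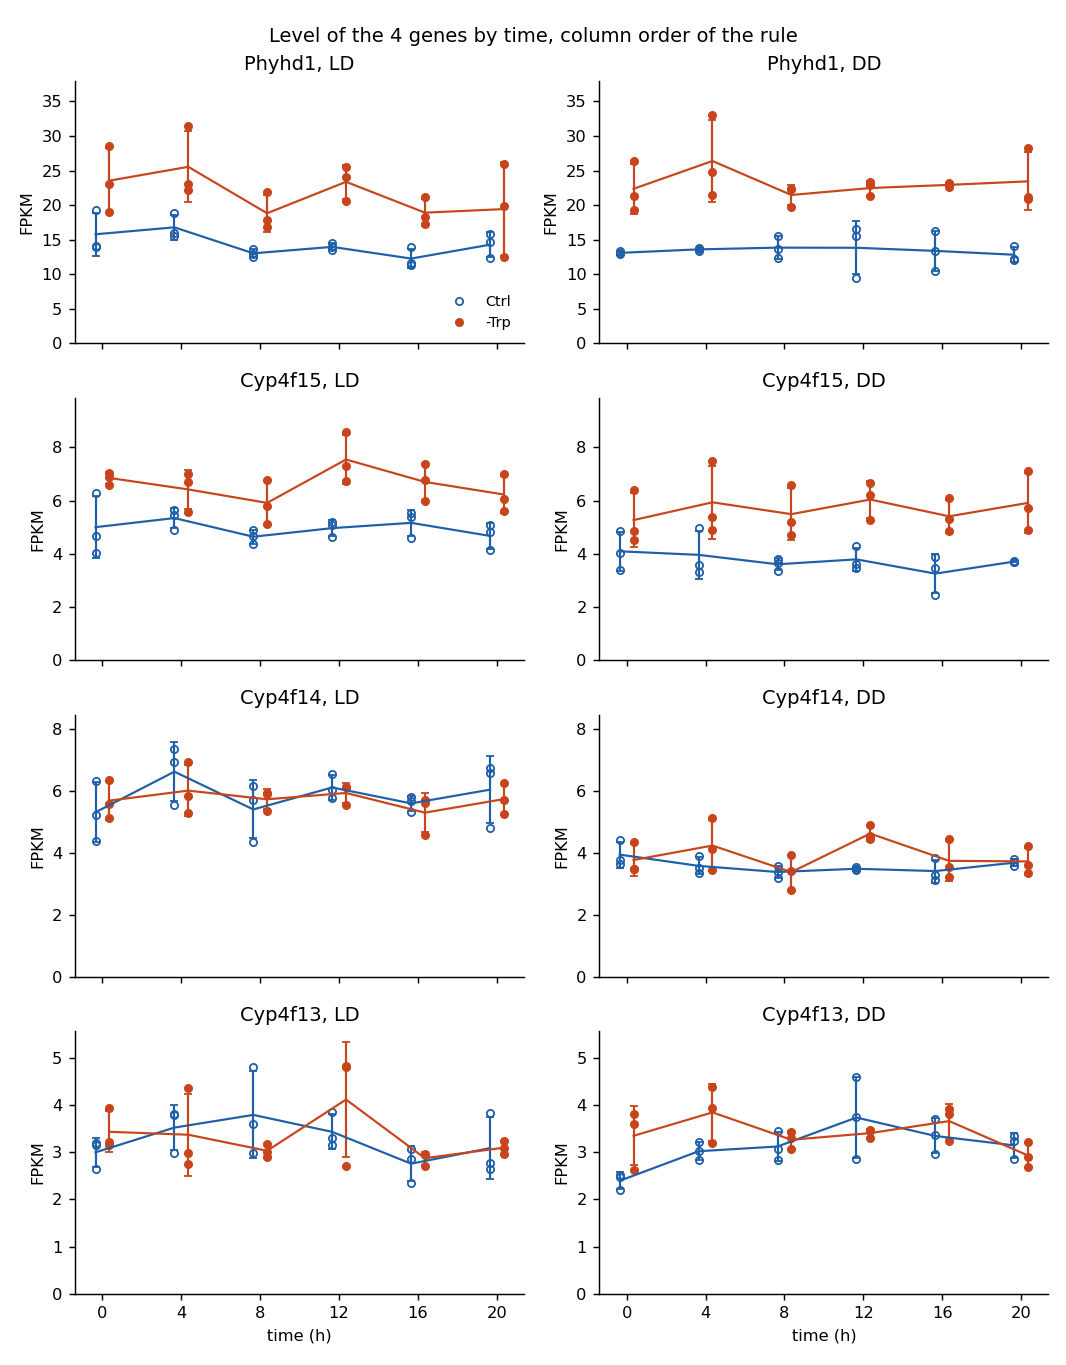
FPKM of Phyhd1, Cyp4f15, Cyp4f14 and Cyp4f13 (rows) against time in hours in LD (left) and DD (right), for Ctrl (open blue points) and -Trp (filled red points). Each point is 1 library, and lines and bars give the mean and SD of 3. The means of Phyhd1 and Cyp4f15 lie higher on -Trp at all 6 time points in both lightings. All 3 -Trp libraries lie above all 3 Ctrl libraries at 4 time points in LD and 6 in DD for Phyhd1. For Cyp4f15 this holds at 5 in LD and 4 in DD, and for Cyp4f14 and Cyp4f13 at 0 in LD and 1 in DD each.

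Cyp4f15, a member of the omega-hydroxylase family, had a level of 4.97 ± 0.568 FPKM (SD, n = 18) on Ctrl and 6.61 ± 0.809 FPKM on -Trp in LD, 1.33 times as high. In DD the levels were 3.74 ± 0.570 FPKM on Ctrl and 5.68 ± 0.895 FPKM on -Trp, 1.52 times as high.
The LD libraries ran from 4.02 to 6.31 FPKM with a median of 4.90 on Ctrl, and from 5.14 to 8.58 FPKM with a median of 6.76 on -Trp. The DD libraries ran from 2.45 to 4.99 FPKM with a median of 3.68 on Ctrl, and from 4.52 to 7.50 FPKM with a median of 5.35 on -Trp. The groups overlapped in both lightings, yet every -Trp library lay above the Ctrl median of its lighting. All 3 -Trp libraries lay above all 3 Ctrl libraries at 5 of 6 time points in LD and at 4 of 6 in DD. For Cyp4f15 too, the share of all genes with such counts was not taken, so they are a description.

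Cyp4f14 and Cyp4f13 had smaller differences, with diets that overlapped, so the 4 genes do not all bear out the description that chose them. Cyp4f14, an enzyme that hydroxylates leukotriene B4 in the mouse, was at 5.86 ± 0.838 FPKM (SD, n = 18) on Ctrl and 5.74 ± 0.531 FPKM on -Trp in LD, and at 3.59 ± 0.302 FPKM and 3.92 ± 0.631 FPKM in DD. Its libraries in LD ran from 4.36 to 7.37 FPKM with a median of 5.80 on Ctrl and from 4.59 to 6.93 FPKM with a median of 5.71 on -Trp. In DD they ran from 3.12 to 4.43 FPKM with a median of 3.57 on Ctrl and from 2.80 to 5.13 FPKM with a median of 3.78 on -Trp. In LD the -Trp libraries lay within the Ctrl range. In DD the -Trp range reached past the Ctrl range at both ends, with 5 of 18 -Trp libraries above the highest Ctrl library. The -Trp mean was the higher at 2 of 6 time points in LD and at 4 of 6 in DD. All 3 -Trp libraries lay above all 3 Ctrl libraries at 0 of 6 time points in LD and at 1 of 6 in DD.
Cyp4f13 was at 3.27 ± 0.592 FPKM (SD, n = 18) on Ctrl and 3.32 ± 0.682 FPKM on -Trp in LD, and at 3.13 ± 0.550 FPKM and 3.41 ± 0.456 FPKM in DD. Its LD libraries ran from 2.35 to 4.80 FPKM with a median of 3.15 on Ctrl and from 2.72 to 4.84 FPKM with a median of 3.05 on -Trp. Its DD libraries ran from 2.19 to 4.60 FPKM with a median of 3.05 on Ctrl and from 2.64 to 4.39 FPKM with a median of 3.37 on -Trp. The diets again overlapped, and the -Trp mean was the higher at 4 of 6 time points in LD and at 4 of 6 in DD. All 3 -Trp libraries lay above all 3 Ctrl libraries at 0 of 6 time points in LD and at 1 of 6 in DD. As for Phyhd1 and Cyp4f15, the share of all genes with such counts was not taken for Cyp4f14 and Cyp4f13.

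Set side by side on the scale of log2(FPKM + 0.5), the difference of -Trp from Ctrl over the 6 time points was 0.58 (SE 0.068) in LD and 0.77 (SE 0.061) in DD for Phyhd1. It was 0.40 (SE 0.052) and 0.55 (SE 0.069) for Cyp4f15. For Cyp4f14 the difference was -0.00064 (SE 0.047) in LD and 0.11 (SE 0.052) in DD, and for Cyp4f13 it was 0.035 (SE 0.073) in LD and 0.12 (SE 0.053) in DD. The median over all genes tested was 0.0034 in LD and 0.012 in DD. The DD difference exceeded the LD difference by 0.20 (SE 0.093) for Phyhd1, 0.16 (SE 0.087) for Cyp4f15, 0.11 (SE 0.071) for Cyp4f14 and 0.086 (SE 0.092) for Cyp4f13, values that rest on the same contrast and are also given with no test (7.87% of all genes were called for this difference by limma).

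The direction of these differences depends on the column order. With the columns read as named, the -Trp level of Phyhd1 was 0.957 times the Ctrl level in LD and 0.835 times in DD, and that of Cyp4f15 was 0.742 times in LD and 0.985 times in DD. On the log2 scale the Cyp4f14 difference as named was -0.36 (SE 0.066) in LD and 0.29 (SE 0.066) in DD.
As named, Phyhd1 also moved in steps between the columns for 0 to 12 h and those for 16 and 20 h. The columns named Ctrl LD averaged 20.1 ± 3.91 FPKM (SD, n = 12) at 0 to 12 h and 13.3 ± 0.351 FPKM (SD, n = 6) at 16 and 20 h. The columns named -Trp LD averaged 13.5 ± 2.27 FPKM at 0 to 12 h and 24.4 ± 4.94 FPKM at 16 and 20 h.
The columns named Ctrl DD averaged 22.6 ± 2.10 FPKM and 16.3 ± 2.34 FPKM over the same spans, and those named -Trp DD 13.4 ± 1.32 FPKM and 24.5 ± 4.55 FPKM. Cyp4f15 as named stepped from 6.60 ± 0.936 FPKM to 4.03 ± 0.735 FPKM in Ctrl LD and from 3.59 ± 0.433 FPKM to 5.60 ± 1.14 FPKM in -Trp LD. Both genes changed the order of the diet means between the spans under the column names, and kept 1 order at all 6 time points under the rule. Since they were chosen as higher on -Trp in the rule's order, this cannot decide which column order is right.

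**Figure D2:**
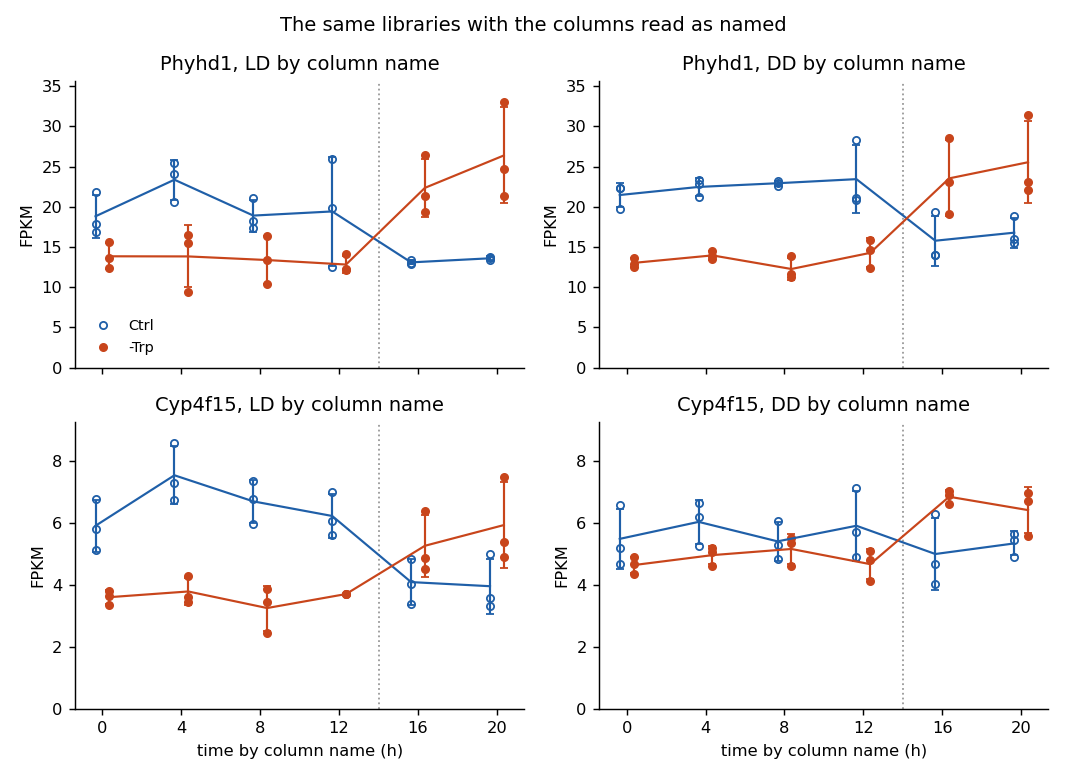
FPKM of Phyhd1 (top) and Cyp4f15 (bottom) against the time in hours that each column name gives, in LD (left) and DD (right) by name, for Ctrl (open blue) and -Trp (filled red). Points are the same 72 libraries, lines and bars the mean and SD of 3, and the dotted line parts 0 to 12 h from 16 and 20 h. The order of the diets changes at the dotted line, where Phyhd1 named Ctrl LD averages 20.1 FPKM on the left and 13.3 FPKM on the right.

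Of the other Cyp4f genes, Cyp4f16 and Cyp4f17 passed the filter of 0.5 FPKM on average, and 0 of 2 was called for diet in either lighting (limma over all genes, where 1.13% of 14202 genes were called in LD and 14.2% of 14484 in DD). At an unadjusted p under 0.05 there was 0 in LD and 1 in DD, Cyp4f17. Cyp4f16 was 2.08 ± 0.223 FPKM (SD, n = 18) on Ctrl and 1.92 ± 0.317 FPKM on -Trp in LD, and 1.60 ± 0.173 FPKM and 1.73 ± 0.238 FPKM in DD. Cyp4f17 was 2.76 ± 0.423 FPKM and 2.55 ± 0.542 FPKM in LD, and 3.36 ± 0.579 FPKM and 3.69 ± 0.417 FPKM in DD. Cyp4f18, Cyp4f37, Cyp4f39 and Cyp4f40 stayed below 0.5 FPKM in all 72 libraries, and Cyp4f40 was listed at 0 in 14 to 17 of the 18 libraries of each group. Of 11 other Cyp4 genes, only Cyp4v3 and Cyp4x1 were tested, and 0 of 2 was called in LD or DD by limma (0 at an unadjusted p under 0.05).

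The genes of the same pathways are set beside the shares called over all genes, 1.13% in LD and 14.2% in DD (limma). Of 16 PPAR alpha targets tested, limma called 0 in LD (3 at an unadjusted p under 0.05). In DD 3 of 16 rose and 1 fell on the log2 scale, with Txnip at 0.42 (adjusted p = 0.0076) and Hadhb, a subunit of the mitochondrial trifunctional protein, at 0.11 (adjusted p = 0.012, limma). The 1 that fell was Cpt1a, which starts the import of long-chain fatty acids into mitochondria, at -0.14 (adjusted p = 0.019, limma).
Of 19 genes of phytanic acid and peroxisomal oxidation, 0 was called in LD by limma (2 at an unadjusted p under 0.05), and in DD 1 rose (Ech1, 0.13, adjusted p = 0.049) and 1 fell (Acox3, -0.13, adjusted p = 0.049). Phyh, the relative of Phyhd1, had a difference of -0.0040 (SE 0.042) in LD and 0.018 (SE 0.034) in DD, neither past the threshold.
Of 18 genes of eicosanoid synthesis and breakdown, 1 rose and 1 fell in LD. Ptgds, which makes prostaglandin D2, differed by 0.71 (SE 0.17, adjusted p = 0.027, limma) and Cyp2j6, an arachidonic acid epoxygenase, by -0.16 (SE 0.028, adjusted p = 0.0034, limma). In DD 2 of 18 rose, Cyp2j9 by 0.31 (adjusted p = 0.011) and Ptges3 by 0.13 (adjusted p = 0.035).
Of 15 genes of P450 electron supply and heme synthesis, 0 was called in LD by limma (2 at an unadjusted p under 0.05), and in DD Urod rose by 0.10 (adjusted p = 0.046) and Cpox fell by 0.15 (adjusted p = 0.043, limma). Of the aldehyde and alcohol dehydrogenases, 0 of 11 was called in LD by limma (4 at an unadjusted p under 0.05) and 1 of 12 in DD, Aldh6a1 at 0.19 (adjusted p = 0.00048, limma). The medians of these lists and of the other Cyp4f and Cyp4 genes lay between -0.089 and 0.11 in both lightings, against 0.0034 and 0.012 over all genes. Of the named genes, Txnip, Acox3, Cpox, Ptgds and Aldh6a1 changed direction with the columns as named, and Cyp2j6 (adjusted p = 0.52) and Cyp2j9 (adjusted p = 0.21, limma) lost the call. Ech1 and Acox3 each lost the call when any of 24 of the 36 DD libraries was left out. This count was 23 for Urod, 20 for Cpox and 10 for Ptges3, and in LD 1 of 36 for Ptgds.

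**Figure D3:**
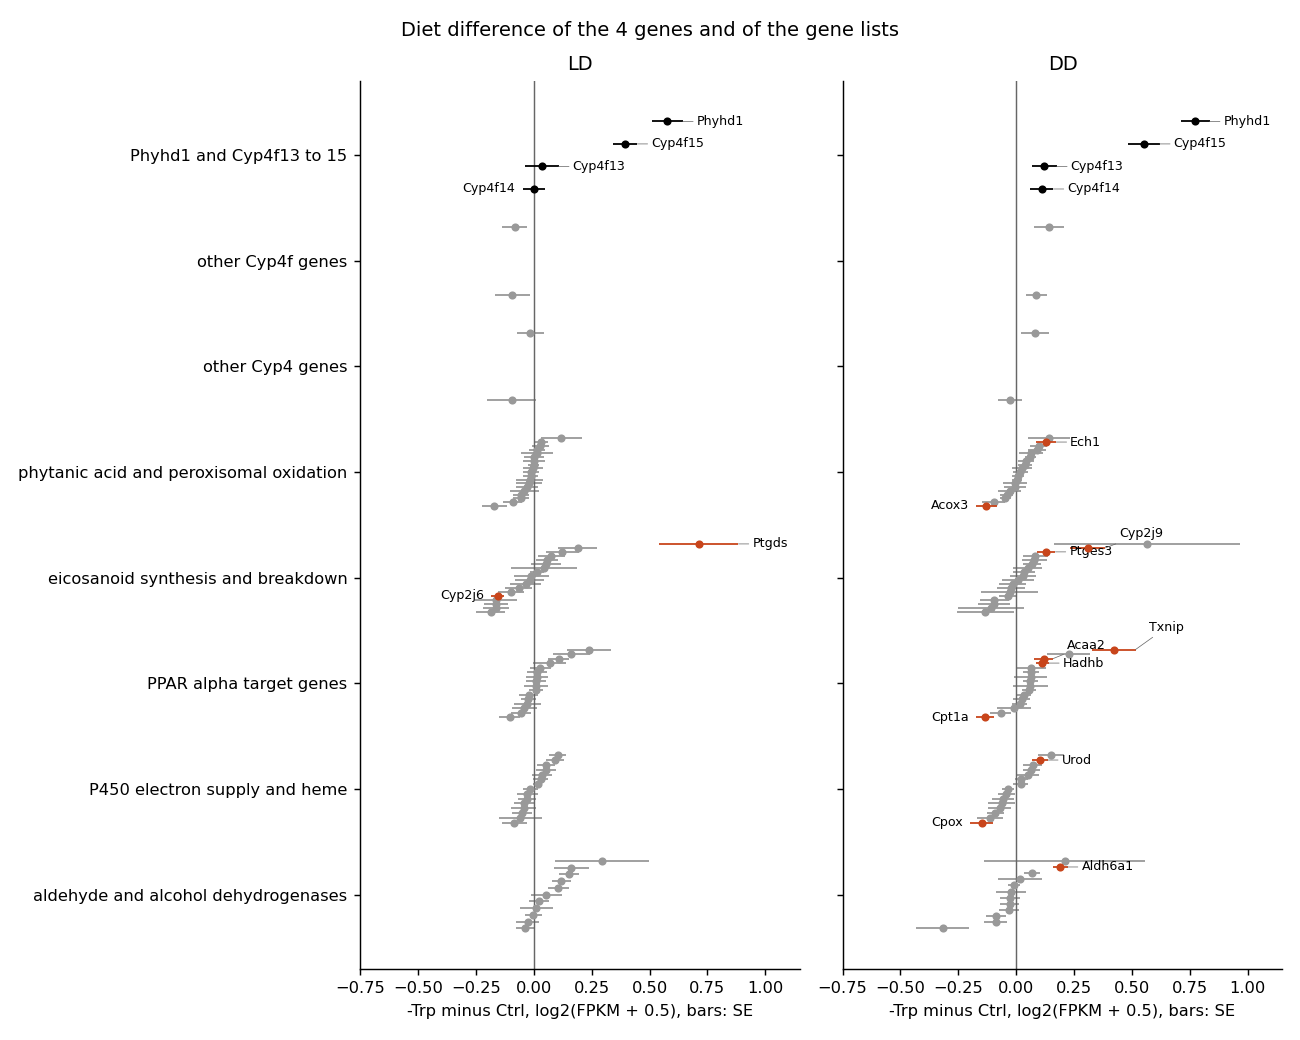
Difference of -Trp from Ctrl on the log2(FPKM + 0.5) scale with its SE, in LD (left) and DD (right), for Phyhd1 and Cyp4f13 to Cyp4f15 (black, no test) and for the tested genes of each list (red where adjusted p is under 0.05 by limma, grey otherwise). In DD Phyhd1 at 0.77 lies right of Txnip at 0.42, while Cyp4f14 and Cyp4f13 lie among the grey points.

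Of 12 tested neighbours on the chromosome, 2 were called for diet in DD, where 14.2% of all genes were. Within 100 kb of Phyhd1, Lrrc8a (2.413 kb away), Dolk (2.082 kb) and Nup188 (4.248 kb) had DD differences of 0.033, -0.044 and 0.025, and none passed the threshold. Sh3glb2 was at 0.031, and Endog, 92.13 kb away, was the 1 called neighbour of Phyhd1, at 0.17 (adjusted p = 0.049, limma). Around the Cyp4f genes, Zfp811 was called in DD, at 0.18 (adjusted p = 0.018, limma), and Zfp799, Zfp870, Zfp871, Zfp472, Zfp952 and Zfp763 were not, with DD differences from -0.0081 to 0.14. In LD limma called 0 of 12 tested neighbours (1 at an unadjusted p under 0.05, Lrrc8a). Spout1, Kyat1, Miga2 and 2 readthrough models across Phyhd1, Gm28035 and Gm28038, were not tested.
The readthrough models lie on the strand of Phyhd1. Of 1579 windows of 100 bases along its longest transcript, 62.4% are also in Gm28035, so reads there could belong to either model and the Phyhd1 level is uncertain to that extent. No such window of the longest Cyp4f13, Cyp4f14 or Cyp4f15 transcript occurs in another gene.

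Light was a comparison that the choice of genes did not use. Averaged over both diets, Cyp4f14 was lower in DD than in LD, with a difference of -0.48 on the log2 scale (SE 0.036, adjusted p = 4.0e-20, limma), and so was Cyp4f15, with a difference of -0.20 (SE 0.044, adjusted p = 2.8e-05, limma). Phyhd1 was higher in DD by 0.11 (SE 0.048, adjusted p = 0.032, limma), and Cyp4f13 differed by 0.080 (SE 0.047, adjusted p = 0.11, limma).
So 3 of the 4 genes passed the threshold, against 85.2% of 14425 genes tested, a share so high that these calls are no particular of the 4 genes, and the difference cannot be told apart from that between the 2 ranges of FPKM sums. The Cyp4f14 libraries ran from 4.36 to 7.37 FPKM in LD and from 2.80 to 5.13 FPKM in DD, with 30 of 36 DD libraries below every LD library, and at 11 of 12 pairs of diet and time all 3 DD libraries lay below all 3 LD libraries. For Cyp4f15 this held at 6 of 12, while for Phyhd1 all 3 DD libraries lay below at 2 and above at 1, and for Cyp4f13 below at 1 and above at 1. The share of all genes with such counts was not taken, so they are a description and mark nothing particular to these genes.
With FPKM used as deposited, without scaling between libraries, Phyhd1 differed by 0.013 (adjusted p = 0.81) and Cyp4f13 by -0.0049 (adjusted p = 0.92), so their small light differences rest on the scaling. With the columns as named, Cyp4f14 and Cyp4f15 turned to 0.20 and 0.13.

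The daily rhythm was tested with JTK_CYCLE for a period of 24 h in each group of 18 libraries, with p under 0.05 as the call. Each exact p given here is the smallest over the phases tried, multiplied by the number of phases (Bonferroni). It comes from the exact null distribution of the statistic. The time labels were checked with Dbp, a clock output gene, which was called in Ctrl LD (exact p = 6.5e-06) with its highest mean of 36.2 FPKM at 12 h and in -Trp LD (exact p = 0.0014) with 36.9 FPKM at 12 h. Neither Dbp nor the clock repressor Per2 was called in DD, and Per2 was not called in LD. The check thus rests on Dbp in LD, and it cannot speak for the time labels in DD.
Phyhd1 was called in Ctrl LD (exact p = 0.034), with its highest mean of 16.8 ± 1.86 FPKM (SD) at 4 h and its lowest of 12.3 ± 1.40 FPKM at 16 h, 3 libraries each. The 3 libraries at 4 h were between 15.5 and 18.9 FPKM and those at 16 h between 11.3 and 13.9 FPKM. These 2 time points were picked as the highest and lowest means, so their separation is only a description. Phyhd1 was not called in -Trp LD, Ctrl DD or -Trp DD.
Cyp4f13 was called in Ctrl DD (exact p = 0.0080), with 3.74 ± 0.867 FPKM (SD) at 12 h and 2.40 ± 0.177 FPKM at 0 h. Its libraries at 12 h, the highest mean, were between 2.87 and 4.60 FPKM. Those at 0 h, the lowest mean, were between 2.19 and 2.51 FPKM, and the 2 were picked in the same way. It was not called in the other 3 groups.
Cyp4f14 and Cyp4f15 were called in no group. Over all 24883 rows, the share called in LD was 7.11% on Ctrl and 7.42% on -Trp, and in DD 4.92% on Ctrl and 1.42% on -Trp, so 1 call among 4 genes in each Ctrl group is little to go on. After Benjamini-Hochberg adjustment over all rows neither call held (adjusted p = 0.57 for Phyhd1 and 0.59 for Cyp4f13). The Phyhd1 call was also lost when any of 8 of the 18 Ctrl LD libraries was left out, each of those at 0 h and 4 h and replicates 1 and 2 at 16 h, with p up to 0.12. The rhythm over both diets did not pass a test for a difference between LD and DD in any of the 4 genes (adjusted p from 0.51 to 0.91, limma, with 0.929% of genes called).
With the columns as named, JTK_CYCLE called Phyhd1 in all 4 groups and Cyp4f15 in Ctrl LD and -Trp LD, and Cyp4f14 in Ctrl LD, while Cyp4f13 lost its call in Ctrl DD (exact p = 0.14).

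Whether the 4 genes moved together from library to library was asked after the mean of each group and time was subtracted. Over 72 libraries, Phyhd1 and Cyp4f15 had Pearson's r = 0.295 (permutation p = 0.069, adjusted 0.21 over the 6 pairs) and Spearman's rho = 0.349 (permutation p = 0.018, adjusted 0.055). Cyp4f14 and Cyp4f15 had r = 0.315 (permutation p = 0.038, adjusted 0.21) and rho = 0.341 (permutation p = 0.018, adjusted 0.055). The other 4 pairs had r from 4.3e-06 to 0.17.
No pair passed after adjustment, and without the 2 libraries farthest from the median the 2 leading pairs rose to r = 0.42 and r = 0.396 (adjusted p = 0.026 for both, permutation), so their calls rest on which libraries enter. Both were higher in DD, at 0.473 and 0.558, than in LD, at 0.0802 and -0.0059, a difference that was not tested.

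The genes whose deviations were most like each member differed from member to member. For Phyhd1 they were Ssr4 (r = 0.71), Nap1l4 (0.71) and Tmed3 (0.70). For Cyp4f13 they were Abtb1 (0.75), Acvrl1, a receptor of endothelial cells (0.75), and Ogfod2 (0.74), for Cyp4f14 Gm12070 (0.76), Slc25a4, the mitochondrial ADP/ATP carrier (0.72), and Ndufa9, a subunit of respiratory complex I (0.72), and for Cyp4f15 Sox2ot (0.60), Parp2 (0.60) and Snx15 (0.58). These are descriptions over 72 libraries, ranked among 13240 genes that averaged 1 FPKM or more. What lies behind the likeness was not tested, and no label says which libraries were dissected or prepared together.

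Since the SCN was dissected as tissue, fewer cells of a type and less RNA per cell cannot be told apart. All 9 markers of SCN neurons were present, with a summed level between 47.9 and 1038 FPKM, and the 6 markers of neighbouring hypothalamus were present too. Among these the neuropeptide gene Oxt had group medians from 526 to 1744 FPKM, and Crh from 0.749 to 8.62 FPKM.
The deviations of Phyhd1 had r = 0.70 with Oxt (0.63 without the 2 libraries farthest from the median) and r = 0.57 with the mean of the 6 markers (0.50 without them). They had r = 0.45 with the mean of the 9 SCN neuron markers and r = -0.49 with that of 8 general neuron markers. The lowest Phyhd1 level of all, 9.42 FPKM in replicate 1 of Ctrl DD at 12 h, was in the library with the lowest Oxt level, 21.0 FPKM, and the lowest Phyhd1 level on -Trp, 12.5 FPKM in replicate 3 of -Trp LD at 20 h, was in the -Trp library with the lowest Oxt level, 246 FPKM.
The summed level of the 6 markers in LD ran from 1309 to 2641 FPKM on Ctrl and from 330 to 3002 FPKM on -Trp, and in DD from 31.1 to 1163 FPKM on Ctrl and from 709 to 1684 FPKM on -Trp. None of the 6 was at 0 in all libraries. For diet, 0 of 6 was called in LD by limma (1 at an unadjusted p under 0.05) and 2 of 6 rose in DD, Crh by 0.88 (adjusted p = 0.013, limma) and Oxt by 0.86 (adjusted p = 0.048, limma), where 7.66% of all genes rose. The Oxt call was lost when any of 26 of the 36 DD libraries was left out (adjusted p up to 0.085, limma), and with FPKM as deposited or with no filter (adjusted p = 0.060 and 0.073, limma). In LD Oxt had a difference of -0.29 (SE 0.17, adjusted p = 0.50, limma).
With the mean of the 6 markers as a covariate, chosen after seeing the data, the Phyhd1 difference between diets was 0.56 (SE 0.049) in LD and 0.71 (SE 0.061) in DD, beside 0.58 and 0.77 without it. Without the library with the lowest Oxt level the Phyhd1 difference in DD was 0.75 (SE 0.057).

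**Figure D4:**
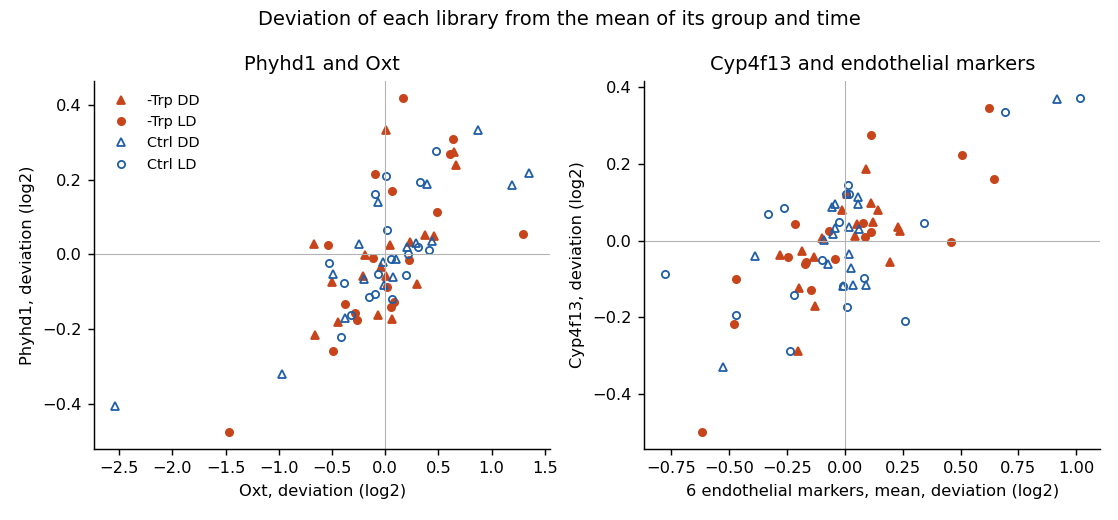
Deviation of each of 72 libraries from the mean of its group and time on the log2(FPKM + 0.5) scale, for Phyhd1 against Oxt (left, r = 0.70) and Cyp4f13 against the mean of 6 endothelial markers (right, r = 0.71). Open blue points are Ctrl, filled red points -Trp, circles LD and triangles DD. The points rise from lower left to upper right in both plots, and the point farthest left in the left plot is replicate 1 of Ctrl DD at 12 h.

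Cyp4f13 moved with endothelial markers, with r = 0.71 (0.64 without the 2 libraries farthest from the median). The summed level of the 6 endothelial markers in LD ran from 16.7 to 85.1 FPKM on Ctrl and from 18.8 to 72.6 FPKM on -Trp, and in DD from 30.0 to 78.1 FPKM on Ctrl and from 27.8 to 48.3 FPKM on -Trp. None was at 0 in all libraries, and limma called 0 of 6 for diet in LD or DD, with 5 at an unadjusted p under 0.05 in LD and 1 in DD. Their median difference between diets was -0.38 in LD and -0.092 in DD. All lists used as covariates were chosen after seeing the data. With the endothelial markers as a covariate the Cyp4f13 difference between diets was 0.16 (SE 0.064) in LD and 0.15 (SE 0.048) in DD. Without a covariate it was 0.035 and 0.12. With oligodendrocyte markers it was 0.024 (SE 0.076) in LD and 0.20 (SE 0.044) in DD. With those of neighbouring hypothalamus it was 0.024 (SE 0.069) in LD and 0.18 (SE 0.053) in DD. With astrocyte markers it was 0.0043 (SE 0.062) in LD and 0.13 (SE 0.054) in DD.
Cyp4f14 had r = 0.49 with 12 astrocyte markers, of which 1 fell in LD (Aqp4, -0.35) and 2 rose and 1 fell in DD (Gjb6, 0.24, Aldoc, 0.17, and Aqp4, -0.22, limma). Cyp4f15 had its highest relation, r = 0.36, with 7 oligodendrocyte markers, of which limma called 0 in LD (1 at an unadjusted p under 0.05) and 1 in DD, Mag, which fell by 0.38 on the log2 scale. With these covariates the Cyp4f15 difference was 0.39 (SE 0.052) in LD and 0.56 (SE 0.067) in DD for the astrocyte list, and 0.41 (SE 0.053) and 0.60 (SE 0.070) for the oligodendrocyte list.
Among the other lists, where 1.13% of all genes were called in LD and 14.2% in DD, 1 of 5 oligodendrocyte precursor markers fell in LD (Gpr17, -0.26) and 4 of 5 in DD (Gpr17, -0.54, Olig1, -0.20, and Olig2, -0.19, among them). Rgs5, a pericyte gene, was the 1 of 7 pericyte and meninges markers called in LD, at -0.40, and Per1 the 1 of 8 clock genes, at 0.21. In DD, Cx3cr1 (1 of 7 microglia markers), Rbfox3 (1 of 8 neuron markers) and Alb (1 of 4 tested liver cell markers) fell, at -0.22, -0.26 and -0.78. The Rbfox3 call was lost when any of 25 of the 36 DD libraries was left out, and the Alb call with any of 21. For Mag in DD this count was 7, and in LD it was 21 for Per1 and 8 for Aqp4. Limma called 0 ependymal and tanycyte markers (2 of 6 at an unadjusted p under 0.05 in LD and 3 of 7 in DD), 0 choroid plexus markers (2 of 4 and 0 of 5) and 0 SCN neuron markers (1 of 9 and 0 of 9). With the columns as named, Aqp4 and Rgs5 changed direction in LD and Mag, Gpr17, Olig1, Olig2, Cx3cr1 and Rbfox3 in DD, and Per1, Gpr17 (both in LD) and Gjb6 lost the call (adjusted p = 0.097, 0.38 and 0.11, limma). The part of these cell types in the diet differences of the 4 genes was not tested.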

How the data were processed

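SCN RNA was sequenced from TruSeq stranded mRNA libraries with paired-end reads. The authors trimmed reads with Trimmomatic (per the labels), aligned them with TopHat (build mm10) and obtained each gene's FPKM from Cufflinks, with no versions given in the sources used here. The 4 deposited tables hold FPKM per gene for 72 libraries, and 0 columns of per-sample values were left unused. No read counts were used, so the depth of each library is unknown and precision comes from the spread between libraries. P-values measure only that spread, since no label ties each library to its own animal.

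Columns were read in the order that places the control libraries, given above, and not by their names. In this order 36 of 36 control columns equalled the study's published values in all 124 to 1939 genes compared (relative tolerance 0.0001), with at most 5 equal in any other column, and the 36 -Trp columns were placed by carrying that order on. The names of the groups and time points come from the sample labels, and the placing of each library in them comes from this order.

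FPKM was scaled by median-of-ratios factors (0.909 to 1.08), genes averaging 0.5 FPKM or more were kept, and limma 3.58.1 (R 4.3.3, trend, Benjamini-Hochberg, threshold 0.05) was fitted to log2(FPKM + 0.5) with time as a factor, which understates changes of low genes. JTK_CYCLE was written anew in Python 3.11.15, and its p equalled the published p in 100% of 1999 Ctrl LD and 135 Ctrl DD rows. Relations used 100000 permutations within group and time, two-sided. Limma and JTK_CYCLE were also run on simulated data.

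The genes and lists were chosen with earlier results of these data known. Some listed genes are not reported here and were left out of the lists. Named are the 4 genes, every other Cyp4f gene, up to 3 called genes per list and lighting by smallest adjusted p, the 3 genes most like each member, protein-coding genes within 100 kb, and Dbp and Per2. Alternatives were the columns as named, FPKM without scaling, a pseudocount of 0.1 or 1, the filter left out or set at 1 FPKM, a replicate block, 1 fit for all 72 libraries, a cosinor fit, and leaving out each library.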

Additional observations from a re-analysis of the deposited data

Results flagged for a closer look

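The diet differences of the 4 genes were not tested between the lightings. Among the genes named beside them, the diet difference differed between DD and LD (interaction term, limma, adjusted over 14425 genes, 7.87% of which were called) for 5 genes, with the value given as DD minus LD on the log2 scale. Oxt was at 1.14 (adjusted p = 0.031, LD -0.29, DD 0.86) and Crh at 0.86 (adjusted p = 0.020, LD 0.024, DD 0.88), both neuropeptide genes of neighbouring hypothalamus. Gpr17 was at -0.28 (adjusted p = 0.0056, LD -0.26, DD -0.54), Per1 at -0.28 (adjusted p = 0.022, LD 0.21, DD -0.075) and Rbfox3 at -0.41 (adjusted p = 0.016, LD 0.15, DD -0.26).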

How the results depend on the processing

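The column order decided the most. With the columns as named, the diet difference on the log2 scale was -0.060 in LD and -0.37 in DD for Phyhd1, -0.35 and -0.087 for Cyp4f15, and -0.36 and 0.29 for Cyp4f14, with 9480 genes called in LD and 10171 in DD. The DD minus LD difference was then -0.31 for Phyhd1, -0.23 for Cyp4f13 and 0.65 for Cyp4f14 (11183 genes called), and the light effect 0.077 for Phyhd1 (adjusted p = 0.51, limma), -0.0040 for Cyp4f13, 0.20 for Cyp4f14 and 0.13 for Cyp4f15 (4098 genes called). The rhythm then differed by light in 8107 genes, and JTK_CYCLE called 3 of the 4 genes on Ctrl and 2 on -Trp in LD, and 1 on -Trp in DD. Named genes that turned were Ptgds (-0.37), Aqp4 (0.62) and Rgs5 (0.93) in LD, and Acox3 (0.021), Txnip (-0.49), Cpox (0.088), Aldh6a1 (-0.27), Mag (0.61), Gpr17 (0.28), Olig1 (0.82), Olig2 (0.64), Cx3cr1 (0.18) and Rbfox3 (0.32) in DD. The column order is the cause by construction.

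With FPKM as deposited, the light effect was 0.013 for Phyhd1 and -0.0049 for Cyp4f13, and 88 genes differed in rhythm by light against 134. Per1 in LD and Ech1, Acox3, Ptges3, Cpox, Urod, Rbfox3 and Oxt in DD then missed the threshold (adjusted p from 0.052 to 0.12, limma). With no filter Per1 in LD and Ech1, Acox3, Cpox, Urod, Mag, Rbfox3, Oxt and Alb in DD missed it (adjusted p from 0.0505 to 0.073, limma), and with a pseudocount of 1 Alb did (adjusted p = 0.064, limma). After Benjamini-Hochberg adjustment JTK_CYCLE called 0 of the 4 genes in Ctrl LD and 0 in Ctrl DD, and over all rows 21 (Ctrl) and 93 (-Trp) in LD and 0 on either diet in DD, against 1769, 1846, 1225 and 354 before adjustment. The diet differences of the 4 genes kept within the spread between libraries under every other alternative.

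Leaving out 1 library gave diet differences from 0.55 to 0.62 in LD and from 0.75 to 0.80 in DD for Phyhd1, and from 0.37 to 0.41 and from 0.52 to 0.58 for Cyp4f15. Genes called ran from 120 to 283 in LD (283 without replicate 2 of Ctrl LD at 20 h), from 1238 to 2875 in DD (1238 without replicate 3 of -Trp DD at 12 h, 1345 and 1363 without replicate 1 at 0 h and 20 h), from 836 to 1746 for the DD minus LD difference (1746 without replicate 1 of Ctrl DD at 0 h) and from 75 to 271 for rhythm by light, with 271 and 86 without replicate 2 of Ctrl LD at 20 h and 16 h, 75 and 87 without replicates 1 and 2 of Ctrl DD at 20 h, and for -Trp DD 248 without replicate 2 at 4 h, 86 without replicate 3 at 8 h, 88 without replicate 1 at 16 h, and 202 and 212 without replicates 1 and 3 at 20 h. The light effect of Phyhd1 ran from 0.089 to 0.12 and lost its call (adjusted p up to 0.059, limma) without replicate 3 of -Trp LD at 20 h, replicate 2 of Ctrl DD at 16 h or replicate 1 of -Trp DD at 20 h. That of Cyp4f13 ran from 0.067 to 0.099 and passed (adjusted p = 0.034, limma) without replicate 1 of Ctrl LD at 8 h. JTK_CYCLE called from 0 to 2 of the 4 genes in Ctrl LD, 2 without replicate 2 at 20 h, where Cyp4f13 reached an exact p of 0.030. Of 28 diet calls of named genes, 12 lost the threshold without at least 1 library (adjusted p up to 0.086, limma).

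No label says that a replicate number marks a shared animal or batch. Deviations of same-numbered Ctrl and -Trp libraries had a median r of 0.071, over 0.1 in 4 of 18 pairs in LD and 12 of 18 in DD and under -0.1 in 5 and 0, so not every pair passed the check and the numbers were not used to pair. Of the Ctrl libraries, 5 of 18 in LD and 11 of 18 in DD correlated best with the -Trp library of their own number. With a replicate block 167 genes were called in LD, 1929 in DD, 12283 by light, 1153 for the DD minus LD difference and 136 for rhythm by light, against 160, 2056, 12292, 1135 and 134 without it. Ech1, Acox3, Rbfox3 and Oxt then missed the threshold in DD (adjusted p from 0.052 to 0.056, limma). This block held a term for each replicate number over all time points, so pairing within a time point was not fitted.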
